A study of Mus musculus with 16 samples.

Results

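Colonization of germ-free (GF) mice with 1 gut bacterium, Bacteroides thetaiotaomicron (Bt), was examined with 4 of the 16 samples of the series: 2 Mouse 430 2.0 GeneChips of cecal epithelium from Bt mono-associated mice and 2 from GF mice. The 4 samples were chosen by labelled state and array type alone. Of the 18193 genes that the GeneChip names, 12937 were tested, those with a probe set above the median of all signals in the table (583.1) on both GeneChips of at least 1 colonization state. The wider study compared 4 states, Bt, Bifidobacterium longum (Bl), the pair of species together (Bt/Bl) and GF, each on 2 Mouse 430 2.0 GeneChips and on 2 custom GlycoGeneChips, which carry genes of glycan synthesis and glycan recognition. The Bt group was adult NMRI mice, male per the study's methods, that had been raised germ-free and received a single gavage of Bt 10 days before sampling. The GF group was untreated, age-matched NMRI mice, also male per the methods, and both groups lived in gnotobiotic isolators on the same autoclaved, polysaccharide-rich chow. Epithelium was cut from cecal cryosections by laser capture microdissection, RNA from 4 animals per state was pooled, and the pool was amplified independently for each GeneChip. Duplicates therefore differed by amplification and hybridization, and every p-value given here measures that technical spread between 2 GeneChips of a pool and not the spread between animals.

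The cecum is the fermentation chamber of the mouse gut, and its lining is a single layer of absorptive, mucus-secreting and hormone-secreting cells that divides in crypts and is shed at the surface. Bt is an anaerobe that breaks down plant and host glycans and releases short-chain fatty acids, which the epithelium takes up and burns. Among the known epithelial answers to bacteria are secreted lectins of the Reg3 family, mucus, and signalling through cytokine receptors and STAT proteins. The question put to these data was how the lining of a mouse that carried Bt alone differed from that of a mouse with no microbe, across functional groups of genes and across the range of signal brightness.

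Signals were MAS5 values on a linear scale, which the values show to be scaled to the same trimmed mean on every GeneChip, and they had no detection calls. Log2 signals of the 2 Bt GeneChips correlated at 0.757 across probe sets and those of the 2 GF GeneChips at 0.827, and the correlations between a Bt and a GF GeneChip lay between 0.747 and 0.829, so duplicates were no more alike than some pairs of different states. The median signal was 580.6 and 653.8 on the Bt GeneChips, against 598.8 and 474.9 on the GF GeneChips. The 3' to 5' signal ratio of Gapdh, a sign of RNA length, was 11.8 and 8.93 in Bt and 5.66 and 7.26 in GF, and that of actin was 23.2 and 36.3 in Bt and 36.9 and 38.8 in GF, and the part of RNA quality in the results was not tested. All 20 genes of epithelial identity were bright, with summed signals of 1650396 and 1466125 in Bt and 1813069 and 1701686 in GF, so both states held epithelium. These genes do not tell the cecum from other parts of the gut or show that other cells were absent. Sex-chromosome transcripts gave a mixed reading. Xist, which is transcribed from the inactive X chromosome of females, had signals of 4908 and 5086 on the Bt GeneChips, against 17157 and 22762 on the GF GeneChips. Eif2s3y, a Y-linked translation factor gene, had signals of 5056.5 and 4310.4 on the Bt GeneChips, against 71.3 and 614 on the GF GeneChips. Both transcripts passed the test (limma, adjusted p = 0.00385 and 0.0057), Xist lower and Eif2s3y higher in Bt, and Xist was above the table median in the Bt pool too. Probe sets of 2 other Y-linked genes, the demethylase genes Uty and Kdm5d, did not pass the test and did not share 1 order. Of Uty, 1 tested probe set had, without overlap, 619 and 697 in Bt and 27.2 and 79.9 in GF. Another overlapped between the states, with 405 and 1208 in Bt and 831.5 and 1113 in GF. The remaining tested one overlapped too, with 985 and 78.4 in Bt and 307 and 27.6 in GF. An untested probe set of Uty had, without overlap, 424.5 and 1081 in Bt and 86.1 and 31.1 in GF. Of Kdm5d, 1 tested probe set had, without overlap, 477 and 39.2 in Bt and 559 and 581 in GF. The other tested one overlapped, with 868 and 145 in Bt and 178.5 and 301 in GF. An untested probe set of Kdm5d overlapped as well, with 44.3 and 218 in Bt and 548.5 and 32.9 in GF. Xist and Eif2s3y thus differed together with colonization, and the part of sex in the results below was not tested. In pooled tissue, fewer cells of a type and less RNA per cell cannot be told apart.

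Across all features few probe sets were called, which with 2 GeneChips per state does not measure how large the contrast was. Of 24865 probe sets tested with limma, 22 (0.0885%) were higher and 20 (0.0804%) lower in Bt at a Benjamini-Hochberg adjusted p under 0.05, which made 18 genes higher and 11 lower, and 4 called probe sets had no symbol or several. The probe sets with an unadjusted p under 0.05 were 1274 higher and 1085 lower. The median log2 fold change of all tested probe sets was 0.02, and that of the 10059 genes whose brightest probe set lay above the table median on average over 8 GeneChips (called bright genes from here on) was -0.02. Scaling each GeneChip to its median in place of its mean moved the bright-gene median to -0.23, and scaling to the 75th percentile moved it to -0.20. With either scaling the split of called probe sets became 6 higher and 14 lower. The calls also drew on the spread of all 8 GeneChips. With only the Bt and GF GeneChips in the fit, 0 probe sets were called higher and 7 lower. Leaving out GF 9129 left 2 called higher and 3 lower, leaving out GF 9128 left 5 and 8, leaving out Bt 9443 left 5 and 10, and leaving out Bt 9130 gave 331 and 45. Leaving out either Bt/Bl GeneChip left 4 called higher, and 10 or 11 lower, leaving out Bl 9135 left 10 and 11, and leaving out Bl 9134 left 13 higher. Of the 29 called genes, Fabp6, Igha and Vnn1 stayed called whichever of the 8 GeneChips was left out. Akr1c18, H2-T3, Me1, Myh14, Pdlim4, Plcb1, Prap1, Reg3g and Socs3 lost their call whichever was left out. The others each lost theirs without at least 1 of the 8. The sign of no called gene turned in any alternative setting.

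The size of a difference depended first on how bright a probe set was. The tested probe sets were divided into 5 equal classes of 4973 by their mean signal over 8 GeneChips, spanning 207 to 476, 476 to 699, 699 to 1216, 1216 to 3194 and 3195 to 879164. The median absolute log2 difference between the Bt and GF means was 1.12, 0.89, 0.62, 0.37 and 0.25 from the dimmest to the brightest class. That between the 2 Bt duplicates was 0.81, 1.11, 0.81, 0.51 and 0.31, and that between the 2 GF duplicates 0.79, 0.92, 0.69, 0.42 and 0.26. In all but the dimmest class the typical difference between the state means was smaller than that between duplicates of either state. A mean of 2 GeneChips varies less than a single GeneChip, however. The 2 measures are thus unlike and do not show whether the states differed by more than duplicates do. In the dimmest class 30.3% of Bt values and 33.8% of GF values lay at the floor of 144.7 to which low signals were raised. A change of at least 2-fold between every Bt and every GF GeneChip was found for 1258 probe sets (5.06%) higher and 859 (3.45%) lower. Its share was 15% higher and 9.47% lower in the dimmest class, against 0.543% higher and 0.483% lower in the brightest. A dim probe set was tested only where both GeneChips of 1 state exceeded 583.1, so the dimmest class held gaps between states by construction, and a filter on the mean signal left 301 higher and 226 lower. Raising the floor to the table median left 264 higher and 123 lower. The calls of the test ran the other way, with 16 of the 22 higher and 18 of the 20 lower in the brightest class. The class medians of the log2 fold change were 0.23, 0.11, 0.12, 0.01 and -0.09, and with median scaling 0, -0.13, -0.09, -0.20 and -0.30, so the sign in the middle classes depended on the scaling.

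**Figure D1:**
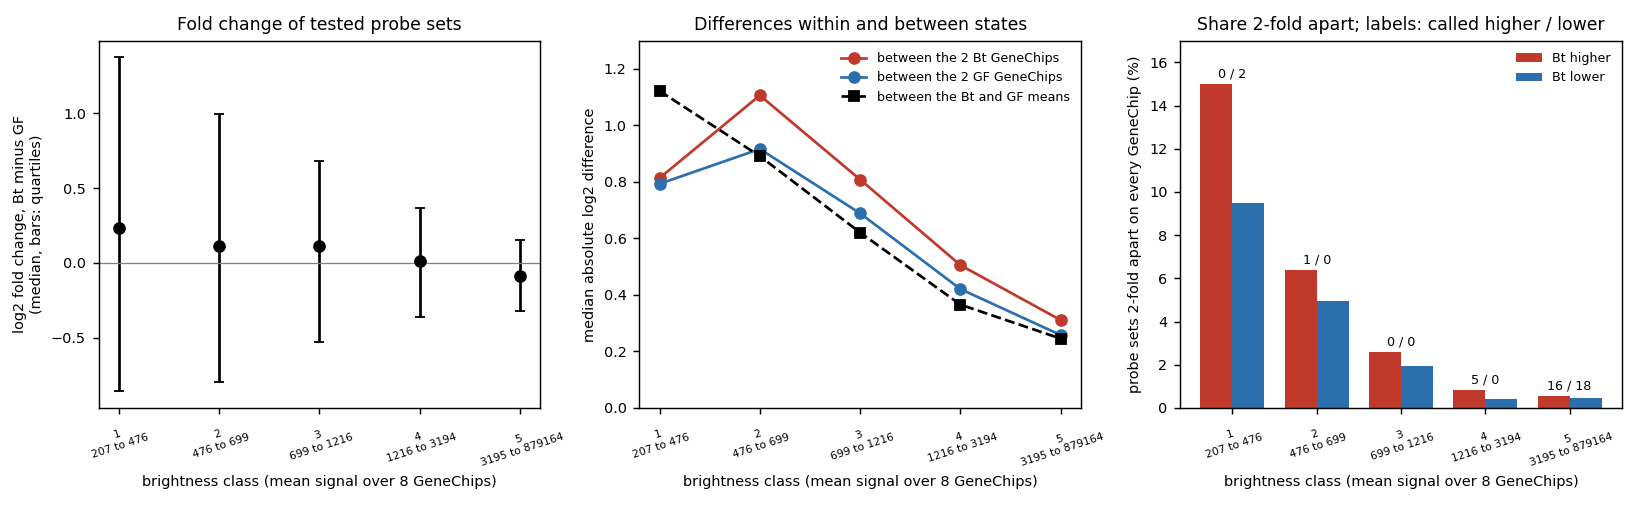
Brightness and the Bt response, for 5 classes of 4973 probe sets by mean signal over 8 GeneChips (x axes). The left panel plots the median log2 fold change, Bt minus GF, with quartiles as bars, the middle panel the median absolute log2 difference between the 2 Bt GeneChips, between the 2 GF GeneChips and between the means of the 2 states, and the right panel the percent of probe sets at least 2-fold apart on every GeneChip, with the numbers called by limma above the bars. Differences shrink from 1.12 in the dimmest to 0.25 in the brightest class, while 34 of the 42 calls fall in the brightest.

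The named extremes of the dim classes illustrate this. Lpo, lactoperoxidase, a secreted antibacterial enzyme, had signals of 1586 and 1507 in Bt, against 65.9 and 102 in GF, both of the GF values under the floor (log2 fold change 3.42 ± 0.71, limma adjusted p = 0.0957). Smyd4, which encodes a protein with a SET domain, had 1508 and 2139 in Bt and 122 and 64.1 in GF (adjusted p = 0.167). Neither passed the test, and for several genes of this kind a second probe set did not share the difference. Mtx3, a mitochondrial import gene, had 1853 and 1841 in Bt and 51.4 and 25.3 in GF on 1 probe set but 1394 and 1421 in Bt and 871 and 1047 in GF on the other. Ybx1, a nucleic acid binding protein, had 1775 and 1413 in Bt and 205 and 67.4 in GF on a dim probe set but 33915 and 50624 in Bt and 31413.5 and 38637 in GF on its brightest. Mxd1, a repressor that pairs with Max, was lower on a dim probe set, with 115 and 119.9 in Bt and 1320.5 and 1671 in GF, whereas its brightest probe set overlapped between the states, with 17229 and 32080.2 in Bt and 16672.5 and 27049.8 in GF. Other extremes were Il17re, a receptor chain for interleukin 17C, among those higher (1486 and 1834 in Bt, 252 and 188.5 in GF), and Fer, a tyrosine kinase, the V-ATPase subunit gene Atp6v0a1, Phrf1 and Lce3f among those lower, with at least 9.33-, 9.89-, 3.41- and 3.29-fold between every pair of GeneChips. None of these genes passed the test. Another probe set was higher in Bt for Fer (664 and 1017 in Bt, 639.7 and 200.5 in GF) and for Atp6v0a1 (1607 and 1447 in Bt, 749 and 1412 in GF). For Il17re a brighter probe set was also higher (9353 and 5652 in Bt, 4238 and 4199 in GF). An untested one of Il17re was lower (159.9 and 50.2 in Bt, 383 and 656 in GF). Extremes that were called, among them Me1, Pdzk1 and Plcb1 of the dim classes, are described with the called genes.

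Among the called genes, Reg3b and Reg3g, which encode C-type lectins that the epithelium secretes against bacteria, were higher in Bt. Reg3b had signals of 70388 and 54835 on the Bt GeneChips, against 12069 and 15800.5 on the GF GeneChips, a change of 4.5-fold (log2 fold change 2.17 ± 0.24, SE, limma adjusted p = 0.000303). Its brighter probe set rose by 2.67-fold, with 405724 and 362467 in Bt and 136536 and 151076 in GF (adjusted p = 0.0119). Every Bt value exceeded every GF value on both probe sets. Reg3g had 16629 and 9676 in Bt, against 2437 and 2154 in GF, 5.54-fold higher (log2 fold change 2.47 ± 0.43, limma adjusted p = 0.0267), with the Bt duplicates farther apart than the GF duplicates. Socs3, a feedback inhibitor of cytokine receptors that is itself induced by STAT3, had 14698.5 and 7905 in Bt, against 899.6 and 2151 in GF, 7.75-fold higher (log2 fold change 2.95 ± 0.44, adjusted p = 0.00625). The duplicates of both states were far apart for this gene, and the states did not overlap. In 11 other settings of floor, scaling, filter and fit, Reg3g kept its call in 5 and Socs3 in 6.

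The promoters of these 3 genes are shown because the lectins and Socs3 moved together and are known as STAT3 targets. Each sequence is the 250 bases before the RefSeq start of the gene on GRCm38.p6, at chr6:78370635-78370884 on the plus strand for Reg3b, chr6:78468875-78469124 on the minus strand for Reg3g and chr11:117969367-117969616 on the minus strand for Socs3. Capitals mark matches to TTCNNNGAA, the letters of a STAT site, and to TATAAA, the letters of a TATA box, searched on both strands.
Reg3b: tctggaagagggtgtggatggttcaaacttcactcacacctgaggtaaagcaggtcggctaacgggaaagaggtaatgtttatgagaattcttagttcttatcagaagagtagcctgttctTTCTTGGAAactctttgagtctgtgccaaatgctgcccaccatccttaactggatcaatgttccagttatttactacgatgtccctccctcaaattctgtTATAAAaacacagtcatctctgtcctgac
Reg3g: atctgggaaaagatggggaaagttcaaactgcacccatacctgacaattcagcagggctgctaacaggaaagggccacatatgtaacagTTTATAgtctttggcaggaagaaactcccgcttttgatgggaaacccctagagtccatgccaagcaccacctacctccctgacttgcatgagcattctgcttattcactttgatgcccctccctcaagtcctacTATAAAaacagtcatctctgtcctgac
Socs3: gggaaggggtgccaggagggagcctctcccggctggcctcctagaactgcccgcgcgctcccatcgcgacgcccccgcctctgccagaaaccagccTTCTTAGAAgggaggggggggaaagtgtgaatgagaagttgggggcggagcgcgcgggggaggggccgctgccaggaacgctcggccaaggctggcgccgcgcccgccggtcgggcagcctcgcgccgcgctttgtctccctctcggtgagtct
Reg3b held both motifs, Reg3g held TATAAA on either strand and no TTCNNNGAA in this window, and Socs3 held TTCNNNGAA alone. Over all 32851 promoters of this length, TTCNNNGAA was found in 7.02% and TATAAA in 12.4%. Of the 29 called genes 25 had a promoter entry, and among these TTCNNNGAA was found in 4 (Dbp, Plcb1, Reg3b and Socs3) and TATAAA in 7, and CACGTG, the letters of the E box bound by clock proteins, was found in 1 (Aqp8), against 6.02% of all promoters. A match describes letters and not binding.

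Around the lectins, the secreted antimicrobial proteins as a list of 20 genes had 17 tested and 13 bright. Of the 17, 3 were called higher, Reg3b, Reg3g and Retnlb, all of them bright, and 0 lower, against a background of 0.169% of bright genes called higher and 0.0895% called lower. Bt and GF GeneChips did not overlap for 8 of the 13 bright members in the higher and 1 in the lower direction, where all bright genes gave 18.7% higher and 18.9% lower, and 4 of the 13 were 2-fold higher on every GeneChip, where the background was 1.6% (1.02% for 2-fold lower). The median log2 fold change of the 13 was 0.40, and less that of all bright genes it was 0.416, or 0.219 without GF 9129. Retnlb, a goblet cell protein that kills bacteria and regulates the mucosal barrier, had 80494 and 89551 in Bt and 31409 and 34152.5 in GF (2.59-fold higher, limma adjusted p = 0.0134). Itln1, intelectin, a lectin for microbial glycans, had 6648 and 7699.6 in Bt and 2432.5 and 3236 in GF without passing the test (adjusted p = 0.159). Reg3a, the third lectin of the family, was dim and had the opposite order, with 160.0 and 149.6 in Bt and 952 and 819.5 in GF (adjusted p = 0.124).

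Mucus genes were led by Muc2, the gel-forming mucin of the intestine, with 89920.5 and 81136 in Bt against 28272 and 30154 in GF, 2.93-fold higher (log2 fold change 1.55 ± 0.24, limma adjusted p = 0.00787). It was the only called member of 22 tested mucin and goblet cell genes. The 20 bright members were 13 higher and 7 lower, with a median of 0.09 that became -0.12 with median scaling, which moved all bright genes to -0.23. Less that of all bright genes, the median was 0.103 to 0.185 whichever scaling, floor or filter was used and 0.052 to 0.177 with 1 left out. Spink4, a protease inhibitor of goblet cells, had 108445 and 82259 in Bt and 44905 and 43044 in GF (adjusted p = 0.0957), and Spdef, the transcription factor of goblet cell maturation, had 793 and 1796 in Bt and 181 and 379.7 in GF on a dim probe set (adjusted p = 0.372). Of 8 bright acute-phase and oxidative defence genes 7 were higher in Bt, 6 of them without overlap (75%, where all bright genes gave 18.7%), with a median of 0.68, and 0 of 11 tested were called (limma, 4 higher and 0 lower at an unadjusted p under 0.05, where all bright genes gave 2.9% higher and 3.8% lower). The median less that of all bright genes, 0.697, was 0.21 with the floor at the table median and 0.425 without Bt/Bl 9133. Saa1, serum amyloid A, an acute-phase apolipoprotein, had 559833 and 567469 in Bt, against 288216.5 and 296403 in GF (adjusted p = 0.296), but its second probe set overlapped, with 348598 and 436914 in Bt and 480076 and 209548 in GF, and near-identical family members can share these signals. Duoxa2, the maturation factor of the hydrogen peroxide forming oxidase Duox2, had 1168 and 1237 in Bt and 149 and 58.1 in GF (adjusted p = 0.365). The dim members S100a8, a neutrophil calcium-binding protein, and Orm1, orosomucoid, lay the same way, S100a8 with 786 and 636 in Bt and 49.7 and 163 in GF and Orm1 with 589 and 1086 in Bt and 140.1 and 287 in GF.

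Genes of fatty acid use were mostly higher in Bt. Of 37 bright targets of the fatty acid receptor PPAR and enzymes of fatty acid oxidation, 30 were higher in Bt and 7 lower. Without overlap 20 were higher (54.1%) and 2 lower (5.41%), where all bright genes gave 18.7% higher and 18.9% lower. On every GeneChip 7 were 2-fold higher, against 1.6% of all bright genes, and 3 were called higher, against 0.169%. The median log2 fold change was 0.42, and it stayed between 0.38 and 0.51 above the bright-gene median in all other settings, including each left-out GeneChip. Vnn1, pantetheinase, which splits pantetheine on the cell surface, had 39171 and 32339 in Bt, against 5023.5 and 6236.5 in GF, 6.36-fold higher (log2 fold change 2.67 ± 0.25, limma adjusted p = 7.38e-05). Acaa1b, the peroxisomal thiolase, had 392354 and 437043 in Bt, against 112718 and 107337 in GF, 3.76-fold higher (adjusted p = 0.00208), and the close sequence of its copy Acaa1a can share this signal. Plin2, a coat protein of lipid droplets, had 49948 and 52957 in Bt, against 22937 and 23931 in GF, 2.2-fold higher (adjusted p = 0.0407). In each of these 3 genes the gap between the states was several times that between duplicates. Me1, malic enzyme, which makes NADPH for lipid synthesis, was called on a probe set whose GF values both lay at the floor, 5932 and 7082 in Bt against 102 and 78.3 in GF, at least 44.8-fold higher against that floor (adjusted p = 0.0136). Its other tested probe set overlapped, with 1023 and 2392 in Bt and 1772 and 895 in GF, so the gene's 2 readings disagreed.

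Further members were higher on every GeneChip without passing the test. Fabp1, the liver-type fatty acid carrier, had 1714 and 3781 in Bt and 40.9 and 522 in GF (adjusted p = 0.292), with its other probe set at 1135 and 934 in Bt and 744 and 700.3 in GF. The acyl-CoA thioesterase Acot1 had 1723 and 2672 in Bt and 106 and 636 in GF, and Acot2 5075 and 4821 in Bt and 1634 and 1443 in GF. Pdk4, the kinase that shuts pyruvate out of mitochondria, had 2978 and 2520.5 in Bt and 616 and 806 in GF (adjusted p = 0.166). Cpt1a, the gate of mitochondrial fatty acid import, had 9286 and 8107 in Bt and 4606 and 5914 in GF, with another probe set in the opposite order (5147 and 3620.5 in Bt, 6359.7 and 5417 in GF), and Mgll, monoacylglycerol lipase, had 9224 and 8359 in Bt and 5394 and 4916 in GF. Decr2, a peroxisomal reductase, had the lowest fold change of the list, with 1148 and 329 in Bt and 898 and 1124 in GF. The acyl-CoA genes thus ranged from clear separation to overlap, and no member was called lower.

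Lipid absorption genes went in both directions. Of 24 tested members 2 were called lower and 0 higher, yet of the 21 bright ones 16 were higher, 13 without overlap (61.9%), and 5 were lower, all 5 without overlap (23.8%), with a median log2 fold change of 0.55 (0.566 less that of all bright genes, 0.278 with the floor at the table median). All bright genes gave 18.7% higher and 18.9% lower without overlap, and 0.169% called higher and 0.0895% called lower. Apoa1, the main protein of high-density lipoprotein, had 2245 and 2684 in Bt, against 39656 and 34578 in GF, 15.1-fold lower (log2 fold change -3.92 ± 0.35, limma adjusted p = 5.53e-05), and all 4 of its probe sets were called. Pdzk1, a scaffold of the brush border, had 57.1 and 92.4 in Bt, both at the floor, against 2305 and 1863 in GF, at least 14.3-fold lower (adjusted p = 0.0161). It passed the signal filter through GF alone, so the values that gave its p-value also selected it. Its call was kept in 4 of 10 other settings of floor, scaling, filter and fit, and was lost with no filter. Apob, the chylomicron protein, had 36918 and 47778 in Bt and 86650.0 and 81167 in GF (adjusted p = 0.137). Against these stood Clps, colipase, with 914 and 2695 in Bt and 144 and 451 in GF, Apoa2 with 846 and 1431 in Bt and 346 and 34.5 in GF, Dgat2, which makes triglyceride, with 7866 and 10516 in Bt and 2196 and 4842.5 in GF, and Apoa4 with 10119 and 7831.5 in Bt and 5279 and 3067 in GF. Their adjusted p-values lay between 0.144 and 0.63.

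Bile acid handling held the called gene with the largest fitted change. Fabp6, the bile acid carrier inside ileal enterocytes, had 1209.5 and 1635.5 in Bt, against 68029 and 95107.5 in GF, 57.2-fold lower (log2 fold change -5.84 ± 0.36, limma adjusted p = 1.21e-06). It was the only called member of 11 tested. The other bright members had no common direction, at 3 higher and 5 lower beside Fabp6, and Slc10a2, the bile acid importer that works with Fabp6 in the ileum, overlapped between the states, with 1165 and 832 in Bt and 860.5 and 2817 in GF. The list's median less that of all bright genes, -0.272, was -0.0118 without GF 9129. In cholesterol synthesis 14 of 21 bright genes were lower and 7 higher, 6 lower and 1 higher without overlap, with a median of -0.23 and 0 called (limma, 0 higher and 3 lower at an unadjusted p under 0.05). The shares over all bright genes were 18.9% lower and 18.7% higher without overlap, and 3.8% lower and 2.9% higher at that p. Less that of all bright genes the median was -0.215, and -0.0464 without GF 9129. Idi1, isopentenyl diphosphate isomerase, had 11234 and 8484 in Bt and 16061 and 22798 in GF (adjusted p = 0.292).

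**Figure D2:**
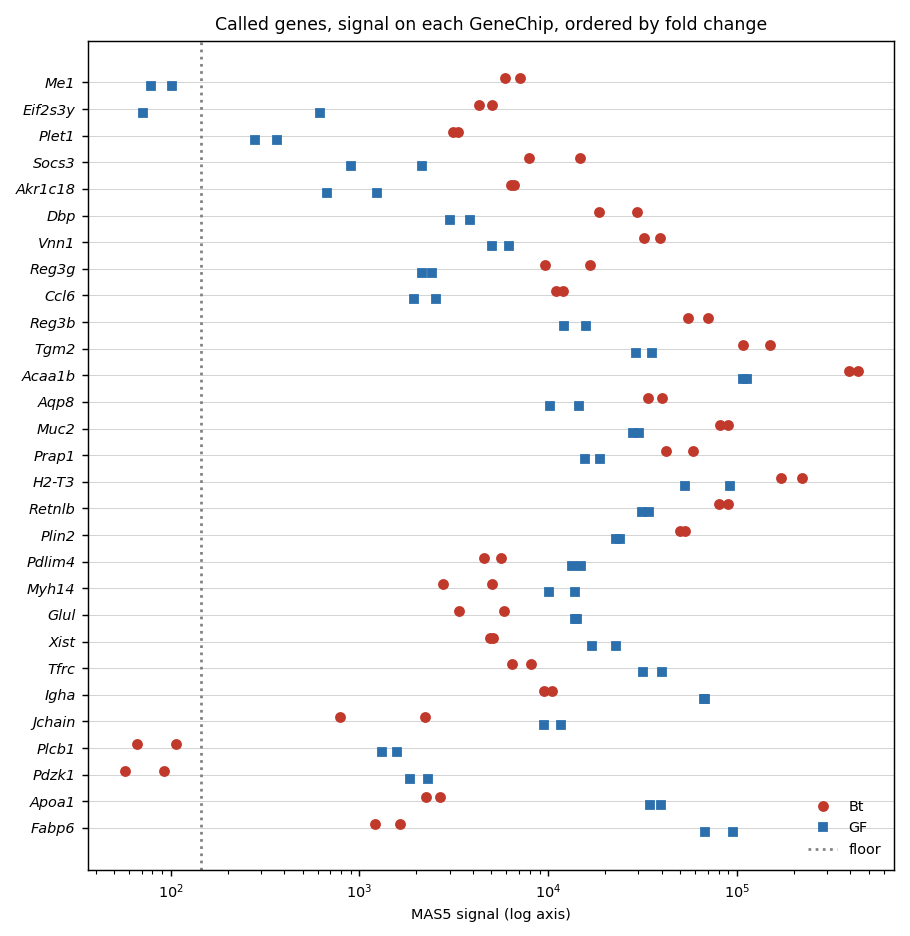
Signal of the 29 genes called by limma on each of the 2 Bt GeneChips (circles) and 2 GF GeneChips (squares), on a log axis, for the probe set of each gene with the lowest p. The genes run from the largest rise to the largest fall in Bt, and the dotted line marks the floor of 144.7, under which lie both GF values of Me1 and both Bt values of Plcb1 and Pdzk1.

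Beside these groups, several called genes stood alone in theirs. Dbp, a transcription factor that is an output of the circadian clock, had 29501 and 18554 in Bt, against 3002 and 3863 in GF, 6.87-fold higher (log2 fold change 2.78 ± 0.27, limma adjusted p = 0.000112). Of the other 14 bright clock genes 8 were higher and 6 lower, 2 and 3 without overlap, where all bright genes gave 18.7% and 18.9%, and none passed the test. Hlf, a relative of Dbp, was dim, at 696 and 742 in Bt and 338 and 291 in GF, and the time of day at which each pool was taken is not given in the sources used here. Tgm2, tissue transglutaminase, which cross-links matrix proteins and is induced by retinoic acid, had 148963 and 107108 in Bt, against 35618 and 29057 in GF, 3.93-fold higher (adjusted p = 0.00288, 3 of 5 tested probe sets called). Other retinoid genes went both ways, Rdh16, a retinol dehydrogenase, with 2440.2 and 3071 in Bt and 1130.1 and 624 in GF, and Lrat, which esterifies retinol, with 1047.5 and 657 in Bt and 3126 and 2713 in GF, neither passing the test. Akr1c18, which inactivates progesterone, had 6584 and 6390.4 in Bt, against 674 and 1236 in GF, 7.11-fold higher (adjusted p = 0.00717). Aqp8, a water channel of surface colonocytes, had 33809.9 and 39872 in Bt, against 10169 and 14517 in GF, 3.02-fold higher (adjusted p = 0.0057), in a transport group whose 35 bright members were otherwise balanced at 15 higher and 19 lower.

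Plet1, a surface protein of progenitor cells, had 3140.0 and 3336 in Bt, against 365 and 280.5 in GF, 10.1-fold higher (log2 fold change 3.34 ± 0.45, limma adjusted p = 0.00288). Its other tested probe set had the opposite order without overlap, with 526 and 996.5 in Bt and 2434 and 1865 in GF (adjusted p = 0.655). Prap1, a lipid-binding protein secreted by the gut, had 58849.9 and 41958 in Bt, against 18873 and 15754 in GF, 2.88-fold higher (adjusted p = 0.00782), and its other probe set overlapped, with 569.9 and 3617 in Bt and 1760.1 and 2006 in GF. H2-T3, the non-classical class I molecule known as TL antigen, had 172234 and 220315 in Bt, against 52778 and 92032 in GF, 2.79-fold higher (adjusted p = 0.0462), while the 15 bright genes of class I presentation had a median of 0.01. A second probe set of H2-T3 had 26136 and 28006.5 in Bt and 21279.9 and 26031.5 in GF (adjusted p = 0.839), so in each of these 3 genes the call rested on 1 of 2 tested probe sets.

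On the lower side, Tfrc, the transferrin receptor that imports iron, had 6415 and 8125 in Bt, against 31653 and 40151.5 in GF, 4.94-fold lower (log2 fold change -2.30 ± 0.38, limma adjusted p = 0.0141), while a dimmer probe set overlapped, with 942 and 1682 in Bt and 1113 and 869 in GF. Among 14 bright iron genes 7 were higher and 7 lower, and Slc40a1, the iron exporter ferroportin, had 27452.5 and 20825 in Bt and 8414 and 11482 in GF (adjusted p = 0.137). Glul, glutamine synthetase, had 5841 and 3380.3 in Bt, against 14289 and 13827 in GF, 3.16-fold lower (adjusted p = 0.0188), and its other probe set overlapped, with 613 and 1814.5 in Bt and 2178 and 1296 in GF. Plcb1, a phospholipase C, had 107 and 66.0 in Bt, both at the floor, against 1311.5 and 1572 in GF, at least 9.92-fold lower (adjusted p = 0.0424). Its other 2 tested probe sets overlapped, with 496 and 1254 and with 1000.0 and 1525 in Bt, against 970.4 and 862 and 1581 and 65.2 in GF, so the readings of this gene disagreed. The called probe set of Plcb1 also passed the signal filter through GF alone. Its call was kept in 2 of 10 other settings of floor, scaling, filter and fit. Myh14, a non-muscle myosin, had 2779.8 and 5060.2 in Bt, against 10148 and 13806.5 in GF, 3.16-fold lower (adjusted p = 0.0458). Pdlim4, an actin-associated adaptor, had 4552 and 5624 in Bt, against 14966 and 13427 in GF, 2.8-fold lower (adjusted p = 0.0411). The calls of these 2 cytoskeletal genes were lost in all 19 other settings.

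Several groups of housekeeping and structural genes had medians below 0 without calls, and the median of all probe sets in the brightest class was itself -0.09. Of 39 bright heat shock and proteasome genes 30 were lower in Bt and 9 higher, 17 lower (43.6%) and 5 higher (12.8%) without overlap, with a median of -0.19, and 0 of 40 tested were called (limma, 0 higher and 8 lower of the bright members at an unadjusted p under 0.05). Among all bright genes 18.9% were lower and 18.7% higher without overlap, and 3.8% lower and 2.9% higher at that p. The list's median less that of all bright genes was between -0.191 and -0.105 when scaling, floor, filter or choice of probe set was altered. With 1 GeneChip left out it ran from -0.299 (GF 9128) to -0.148 (GF 9129). Among its bright members the inducible chaperones Hsph1, Hspa1a and Hspa1b were the lowest, and the dim member Psmb7, a proteasome subunit, was lower still, with 117 and 277 in Bt and 862 and 1062.5 in GF (adjusted p = 0.382). Hsph1, a nucleotide exchange factor of Hsp70, had 3767 and 4169 in Bt and 11865 and 11373 in GF (log2 fold change -1.55 ± 0.43, limma adjusted p = 0.237). Hspa1b, the inducible Hsp70, had 14516 and 11476 in Bt and 26917 and 32433 in GF (adjusted p = 0.0638). Its twin Hspa1a had 2412 and 1915 in Bt and 4723 and 6575.5 in GF, and the near-identical sequences of the pair can share signal. Dnaja1, an Hsp40 partner of Hsp70, had 9002 and 10799 in Bt and 15941 and 19948 in GF. Proteasome subunits lay on both sides, as in Psmc4, an ATPase of the regulatory particle, with 10282 and 14926 in Bt and 21282 and 21067 in GF, and Psmd1, its scaffold, with 2241 and 2163 in Bt and 484 and 1755 in GF. In the related list of the unfolded protein response and folding in the endoplasmic reticulum 23 of 33 bright genes were lower and 10 higher, 11 lower (33.3%) and 1 higher without overlap, with a median of -0.23. Less that of all bright genes it was -0.209, and -0.0821 without GF 9129.

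Tight and adherens junction genes had 23 of 32 bright members lower and 9 higher, 18 lower (56.2%) and 5 higher (15.6%) without overlap, with a median of -0.26 and 0 of 33 tested called (limma, 0 higher and 4 lower at an unadjusted p under 0.05). For this and the next lists, all bright genes gave 18.9% lower and 18.7% higher without overlap, and 3.8% lower and 2.9% higher at that p. Cdh1, E-cadherin, had 24617 and 24906 in Bt and 33557 and 49926 in GF. Dsc2, a desmosomal cadherin, had 6969.8 and 7674 in Bt and 11024 and 20826 in GF, and Nectin3 8716.5 and 6802 in Bt and 13267 and 13202 in GF. Their adjusted p-values were 0.434, 0.307 and 0.37. Cldn4, a sealing claudin, was on the other side, with 2266 and 2053 in Bt and 1028 and 1294 in GF. Brush border genes had 17 of 23 lower, 7 without overlap, with a median of -0.29, among them Ezr, ezrin, which ties microvilli to actin, with 19319 and 17039 in Bt and 32439 and 38337 in GF, while Alpi, intestinal alkaline phosphatase, had 27193 and 27295 in Bt and 16880.4 and 14332 in GF. The 21 bright citric acid cycle genes were 16 lower, 9 of them without overlap (42.9%), and 5 higher, with a median of -0.24, and 58 oxidative phosphorylation genes were 39 lower and 19 higher with a median of -0.10, or -0.02 when each gene was taken relative to the median of its brightness class. Without 1 GeneChip the medians less that of all bright genes came nearer to 0, at -0.0637 against -0.271 for the brush border (Bt 9443), -0.0901 against -0.224 for the citric acid cycle (GF 9129) and -0.00118 against -0.0816 for oxidative phosphorylation (Bt 9443). Epithelial identity genes themselves, bright and chosen for their presence in every epithelial cell, had a median of -0.10, or -0.01 relative to their brightness classes, with 8 of 20 lower and 3 higher without overlap.

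**Figure D3:**
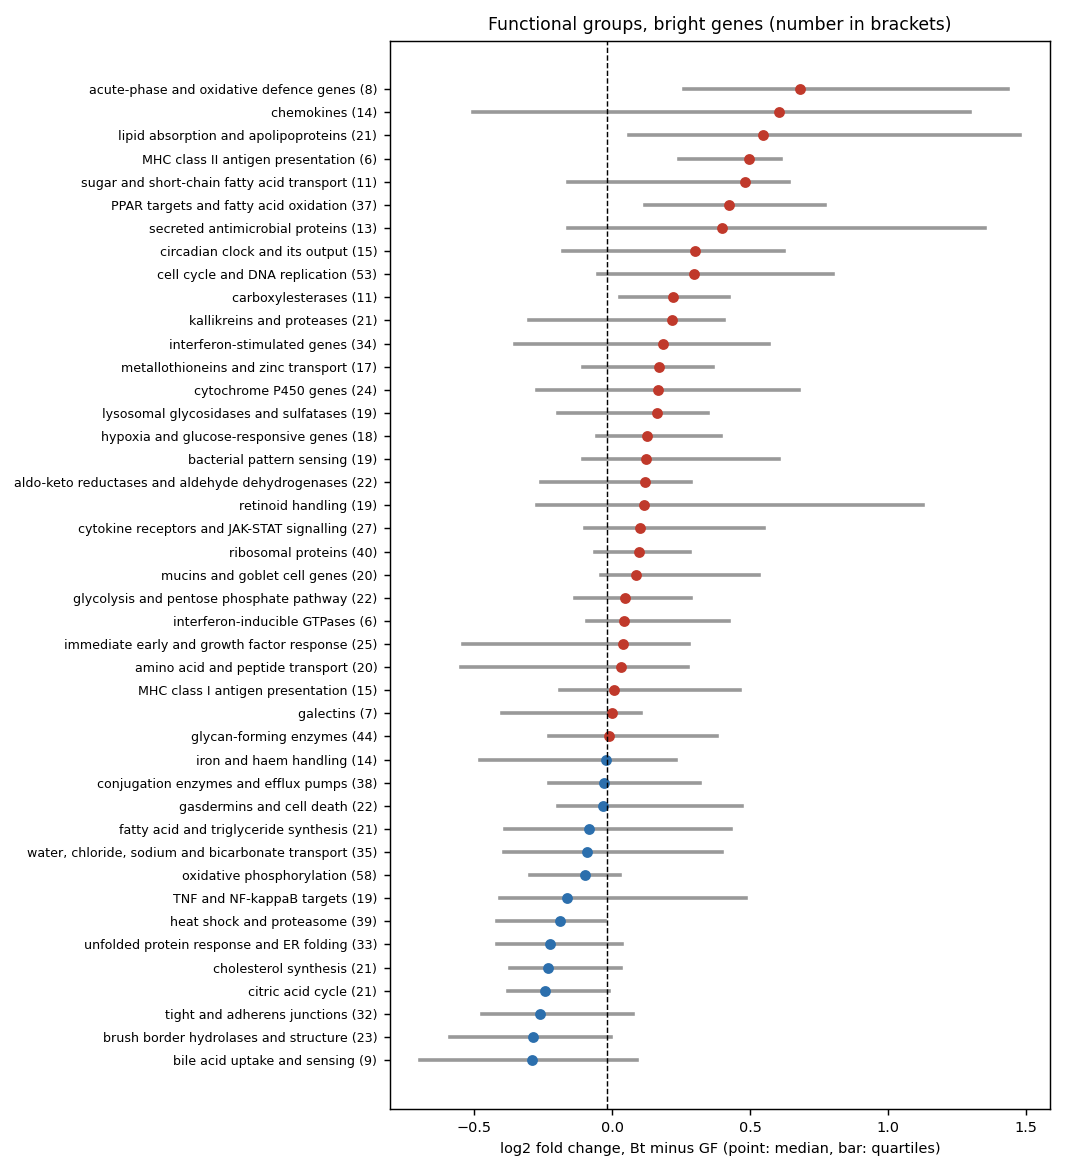
Median log2 fold change, Bt minus GF (x axis), of the bright members of 43 functional lists, with quartiles as bars and the number of bright members in brackets. The dashed line is the median of all 10059 bright genes (-0.02). Lists run from acute-phase genes (0.68) to bile acid genes (-0.29), and most quartile bars cross the dashed line.

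**Figure D4:**
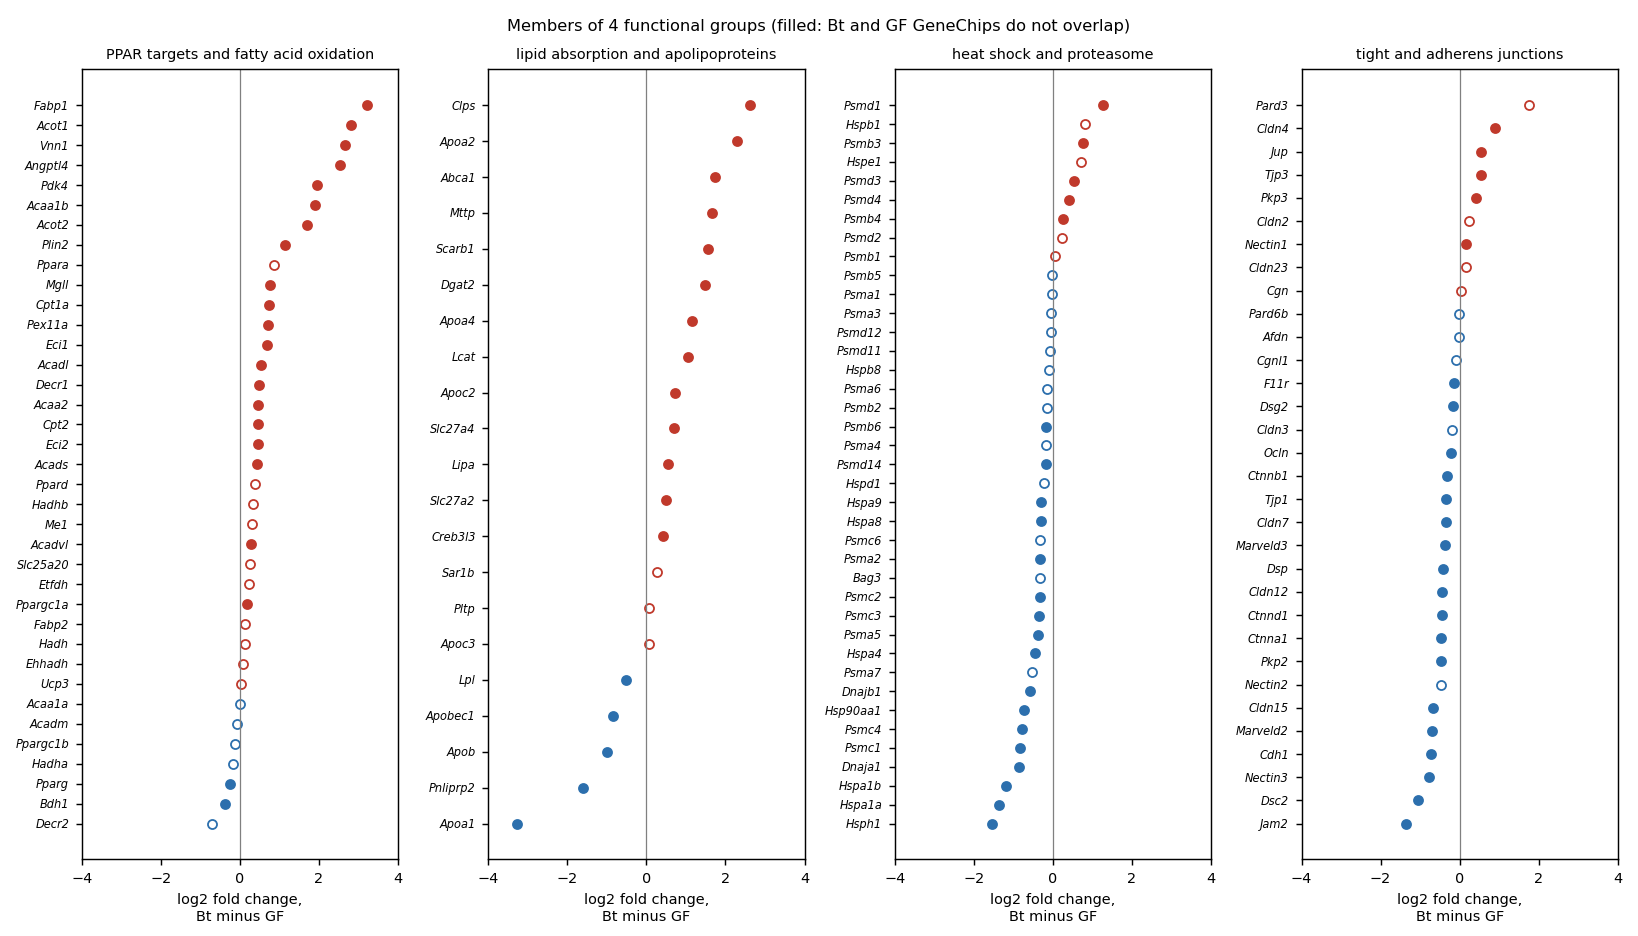
Log2 fold change, Bt minus GF (x axes), of every bright member of 4 lists, each point the brightest probe set of a gene. Filled points mark genes whose 2 Bt and 2 GF GeneChips did not overlap. The fatty acid list lies mostly right of 0 (30 of 37), the heat shock and proteasome list mostly left (30 of 39).

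Proliferation genes were mostly higher. Of 53 bright cell cycle and DNA replication genes 39 were higher and 14 lower in Bt, 20 higher (37.7%) and 6 lower (11.3%) without overlap, with a median of 0.30, and 0 of 60 tested were called (limma, 4 higher and 1 lower at an unadjusted p under 0.05). The same shares over all bright genes were 18.7% higher and 18.9% lower without overlap, and 2.9% higher and 3.8% lower at that p. Foxm1, a transcription factor of the G2 phase, had 2522 and 1963 in Bt and 1082 and 656 in GF (adjusted p = 0.386). Cdc20, an activator of the anaphase complex, had 9496 and 6984 in Bt and 4506 and 4254 in GF, and Ccnb2, a mitotic cyclin, 2211 and 1785 in Bt and 714 and 937 in GF. Mki67, the usual marker of cycling cells, differed less, with 9261 and 7408 in Bt and 6522.5 and 6743.5 in GF. Ccnd2, a cyclin of the G1 phase, lay the other way, with 6182 and 5331 in Bt and 11657 and 10250.1 in GF (adjusted p = 0.212). The dim members Tk1, thymidine kinase, and Kif20a, a mitotic kinesin, were 2-fold higher on every GeneChip, Tk1 with 1622 and 1049 in Bt and 45.2 and 92.5 in GF and Kif20a with 695 and 662 in Bt and 309 and 319.9 in GF, as was Pola1, DNA polymerase alpha, with 679.7 and 2007 in Bt and 249 and 166 in GF. An untested probe set of Pola1 had the opposite order, with 46.1 and 121 in Bt and 395.5 and 307 in GF. Ribosomal protein genes had a median of 0.10 that became -0.11 with median scaling, and less that of all bright genes it was 0.0751 to 0.116 whichever scaling, floor or filter was used and 0.0125 to 0.19 with 1 left out.

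Cytokine signalling beyond Socs3 gave no called gene. Of 35 tested receptor and JAK-STAT genes Socs3 was the only one called, and the 27 bright members were 16 higher and 11 lower with a median of 0.10 that became -0.11 with median scaling. Less that of all bright genes it was 0.119, and -0.0577 without Bt 9130. Pim1, a kinase induced by STAT signalling, had on a dim probe set 157 and 158 in Bt and 1079 and 1315 in GF, the reverse of Socs3, and Pim3, a relative, 24572 and 30839 in Bt and 14095 and 16755 in GF. Lifr and Tslp, a receptor and a cytokine of this list, were 2-fold apart on every GeneChip on dim probe sets, Lifr with 944 and 699 in Bt and 43.9 and 43.9 in GF and Tslp with 66.1 and 52.9 in Bt and 381 and 629.5 in GF. An untested probe set of Lifr had the opposite order, with 92.8 and 49 in Bt and 762 and 214 in GF, and another overlapped. An untested probe set of Pim1 overlapped too, with 109 and 606 in Bt and 68.7 and 788 in GF. The 19 bright targets of TNF and NF-kappaB were 8 higher and 11 lower, 5 and 5 without overlap (26.3% each, where all bright genes gave 18.7% higher and 18.9% lower). Tnf itself lay under the signal filter in all states and was not tested, with 166 and 1396 in Bt and 89.6 and 150.1 in GF.

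Of the chemokines, Ccl6, a CC chemokine of macrophages and epithelium, had 11919 and 10959 in Bt, against 2534 and 1955 in GF, 5.13-fold higher (log2 fold change 2.36 ± 0.36, limma adjusted p = 0.00787). Its dimmer probe set had 1450 and 3002 in Bt and 676 and 1307 in GF (adjusted p = 0.748). Ccl6 was the only chemokine called of 18 tested. Ccl9, its genomic neighbour, had 216 and 222 in Bt and 1145 and 657 in GF, Ccl17 had 750.3 and 930.0 in Bt and 346 and 362 in GF, and Ccl25, which draws lymphocytes to the small intestine, 93.2 and 135 in Bt and 2272.5 and 1149.6 in GF. An untested, dim probe set of Ccl9 had the opposite order, with 319 and 129 in Bt and 95.5 and 51.5 in GF. The family thus held members on both sides, and the 14 bright ones had a median of 0.61. Less that of all bright genes it was 0.623, and it ran from 0.218 without Bt 9443 to 1.2 without GF 9128. Interferon-stimulated genes were 21 higher and 13 lower of 34 bright, with a median of 0.19 that became -0.02 with median scaling, and 0 of 37 tested were called (limma, 4 higher and 2 lower at an unadjusted p under 0.05, where all bright genes gave 2.9% higher and 3.8% lower). Less that of all bright genes the median was 0.159 to 0.203 whichever scaling, floor or filter was used and 0.164 to 0.402 with 1 left out. Ifit1, an antiviral RNA-binding protein, had 9757 and 8443 in Bt and 3390.1 and 4845 in GF (adjusted p = 0.122), and Oas1a, which makes the activator of RNase L, 47424 and 30004.5 in Bt and 19743 and 15901 in GF (adjusted p = 0.162).

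Several lists had no called member and medians near that of all bright genes, among them glycan-forming enzymes (44 bright, -0.01), conjugation enzymes and efflux pumps (38 bright, -0.03) and glycolysis and the pentose phosphate pathway (22 bright, 0.05). In MHC class II presentation 5 of 6 bright genes were higher, with a median of 0.50 and no call (0.513 less that of all bright genes, 0.213 without Bt 9443). Sugar and short-chain fatty acid transport, the list nearest to Bt fermentation products, had 7 of 11 bright members higher and a median of 0.48 (0.498 less that of all bright genes, 0.137 with the floor at the table median), with Slc2a1, the glucose carrier Glut1, at 182471.5 and 172661 in Bt and 111568.5 and 108119 in GF (adjusted p = 0.338). In the glycan list B3galt5, a galactosyltransferase, had 2165 and 2129 in Bt and 351 and 782 in GF, and St6gal1, a sialyltransferase, 7522 and 6646 in Bt and 2722 and 3819.7 in GF, neither passing the test.

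Transcripts of other cells also differed between the pools. Igha, the constant region of IgA, had 10428 and 9476 in Bt, against 67287 and 67482 in GF, 6.78-fold lower (log2 fold change -2.76 ± 0.20, limma adjusted p = 7.73e-06), with all 3 of its probe sets called. Jchain, which joins IgA dimers, had 789 and 2226 in Bt, against 9551 and 11759 in GF, 8-fold lower (adjusted p = 0.00345). These are products of plasma cells, which lie beneath the epithelium. Summed over the 11 plasma cell genes on the GeneChip, signals were 113236 and 97501 in Bt and 221484 and 203261 in GF. Of the 9 bright ones 4 were lower and 1 higher without overlap, where all bright genes gave 18.9% lower and 18.7% higher. The sums of the other lists in this paragraph are also over all their genes on the GeneChip. Summed fibroblast and matrix genes were 109830 and 105902 in Bt and 137301 and 132448 in GF (21 bright, 9 lower and 1 higher without overlap). Smooth muscle genes ran the other way, at 64990 and 44547 in Bt and 39378 and 34285 in GF (6 bright). The 24 T cell genes, of which 7 were bright, summed to 15126 and 23448 in Bt and 14487 and 8478 in GF. Their defining gene Cd3e was dim in both states, with 95.6 and 347 in Bt and 261.5 and 669.8 in GF. Genes of small intestinal enterocytes summed to 855029 and 799814 in Bt and 1002921 and 897442 in GF, with 9 of 18 bright members higher, 9 lower and Fabp6 and Apoa1 called lower. The part of tissue margins and neighbouring cells in the results above was not tested, and Fabp6, Apoa1, Igha and Jchain are called genes of the lists just given.

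The response was then set against those of the other colonized states, which were compared with the same GF GeneChips. A direct difference between Bt and Bl was called for 11 probe sets (0.0442%), and between Bt and Bt/Bl for 12 (0.0483%), counts that ran from 4 to 633 and from 0 to 352 with 1 GeneChip left out. The lectins were the widest apart between the 2 mono-associations. Reg3b had 70388 and 54835 in Bt, 1221 and 1016 in Bl, 37781 and 41154 in Bt/Bl and 12069 and 15800.5 in GF, so that Bt lay above GF and Bl below it (Bt minus Bl 5.80 on the log2 scale, limma adjusted p = 2.11e-09). Reg3g had 16629 and 9676 in Bt, 152 and 33.6 in Bl, 7321 and 7842 in Bt/Bl and 2437 and 2154 in GF (Bt minus Bl 6.42, adjusted p = 1.69e-06). Socs3 had 14698.5 and 7905 in Bt, 1628 and 1476 in Bl, 6534 and 5709 in Bt/Bl and 899.6 and 2151 in GF (Bt minus Bl 2.80, adjusted p = 0.0264). In the 3 genes the co-colonized pool lay between Bt and GF, and its difference from Bt did not pass the test. Vnn1 was high in the same pools, with 39171 and 32339 in Bt, 6428 and 9519 in Bl, 24436 and 24425 in Bt/Bl and 5023.5 and 6236.5 in GF (Bt minus Bl 2.19, adjusted p = 0.00101).

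On its called probe set Ccl6 was high in Bt alone, with 11919 and 10959 in Bt, 1663.5 and 1702 in Bl, 1967 and 2127 in Bt/Bl and 2534 and 1955 in GF, and its Bt signal differed from that of Bl (adjusted p = 0.00444) and of Bt/Bl (adjusted p = 0.0128) as well as of GF. Its dimmer probe set passed the test in none of these contrasts, and Bt and Bl overlapped on it. Signals there were 1450 and 3002 in Bt, 309 and 1520 in Bl, 626 and 804 in Bt/Bl and 676 and 1307 in GF. For other called genes the 3 colonized pools lay together and GF apart. Fabp6 had 1209.5 and 1635.5 in Bt, 1558 and 1309 in Bl, 1179 and 1798 in Bt/Bl and 68029 and 95107.5 in GF. Aqp8 had 33809.9 and 39872 in Bt, 38596.5 and 49985 in Bl, 42879.9 and 42730.3 in Bt/Bl and 10169 and 14517 in GF, and Retnlb 80494 and 89551 in Bt, 75687 and 100721 in Bl, 96333 and 91537 in Bt/Bl and 31409 and 34152.5 in GF. The called probe set of Eif2s3y had this order as well, with 5056.5 and 4310.4 in Bt, 3201 and 4872 in Bl, 5657 and 4401 in Bt/Bl and 71.3 and 614 in GF. Its dim probe set did not, with 734 and 783.5 in Bt, 120 and 43.4 in Bl, 456 and 104 in Bt/Bl and 437 and 129.5 in GF. Since every contrast with GF uses the same 2 GF GeneChips, whatever set those apart enters all of them. Plet1 was higher still in the co-colonized pool, at 10593 and 12633 in Bt/Bl, 3140.0 and 3336 in Bt and 365 and 280.5 in GF. Xist was at 4908 and 5086 in Bt, 4405 and 3753 in Bl, 7541 and 11176 in Bt/Bl and 17157 and 22762 in GF, and Igha at 10428 and 9476 in Bt, 18389 and 18566 in Bl, 30419 and 26979.9 in Bt/Bl and 67287 and 67482 in GF.

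**Figure D5:**
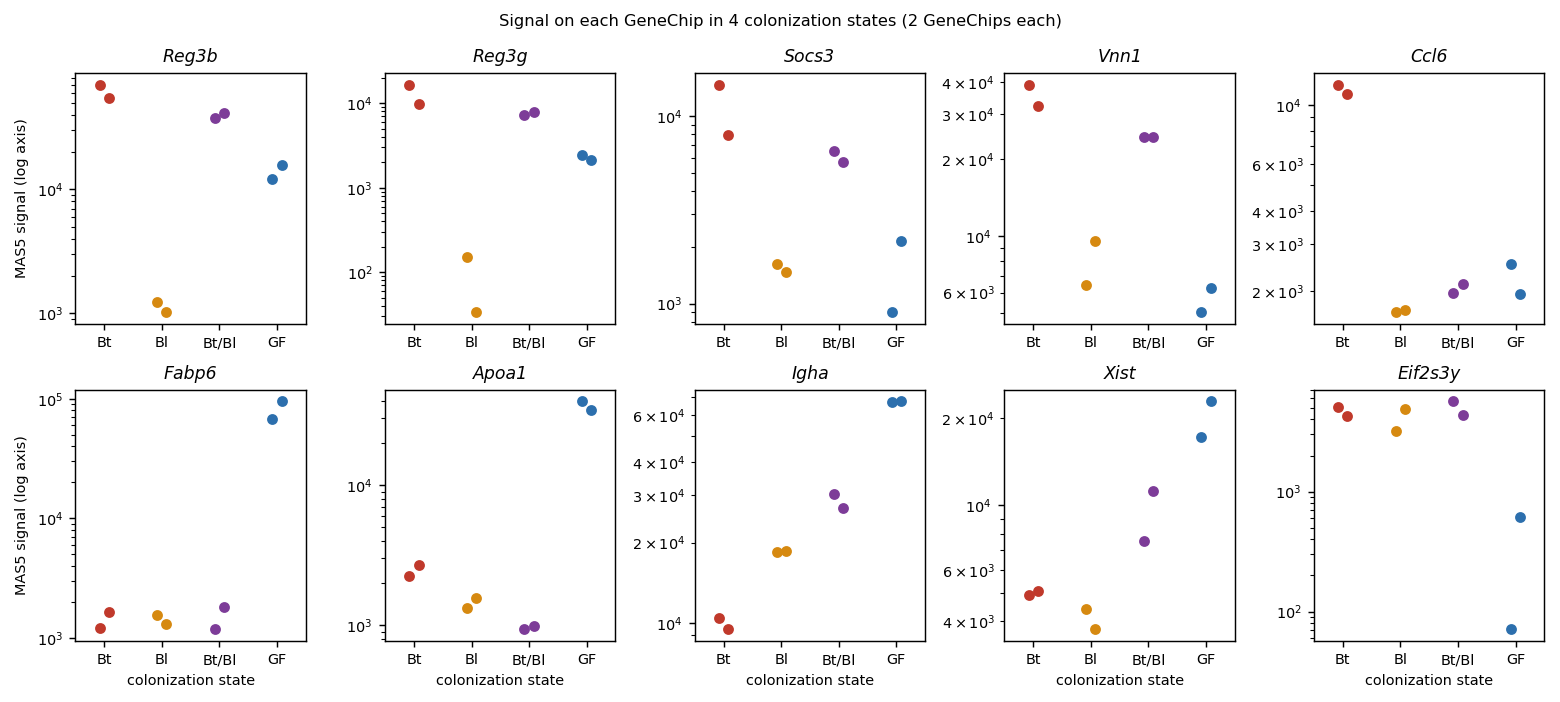
Signal on each of the 2 GeneChips of the Bt, Bl, Bt/Bl and GF pools (x axes) for 10 called genes, on log axes that differ between panels. Each gene is shown by its called probe set with the lowest p. Reg3b, Reg3g, Socs3 and Vnn1 are high in the pools with Bt, Ccl6 in Bt alone, and Fabp6 and Apoa1 are high in GF alone.

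A second array type gave readings of the lectin gene in the same states. On the GlycoGeneChip, where 454 mouse probe sets were tested, 3 were called higher (0.661%) and 3 lower (0.661%), and 2 of the 3 higher were the probe sets of Reg3b. The first had signals of 34227 and 27249 in Bt, against 2611 and 3912 in GF, 9.56-fold higher (log2 fold change 3.26 ± 0.45, limma adjusted p = 2.24e-06). The second had 194932 and 199690.0 in Bt, against 44347 and 57740.3 in GF, 3.9-fold higher (adjusted p = 3.45e-06). The other called probe sets belonged to Bmp6, a growth factor of iron balance, higher, with 1005 and 1891 in Bt, against 149 and 159 in GF, and to Ccl27a, Epo and Mag, which were dim and lower, among them Mag, a lectin of myelin, with 424 and 151.5 in Bt, against 2171 and 2259 in GF. The number called was 2 when the floor was raised to the median of that table. Ccl17, higher in Bt on the Mouse 430 2.0, had the opposite order on the GlycoGeneChip, with 201 and 210 in Bt and 1024 and 1311 in GF. Ccl25 was lower in Bt on both array types, with 94.8 and 1118 in Bt and 2057 and 2723 in GF on the GlycoGeneChip. Neither passed the test (limma adjusted p = 0.563 and 0.657). Whether the GlycoGeneChips were made from the same amplifications is not given in the sources used here.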

How the data were processed

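Per the labels, the authors computed the deposited intensities with MAS5. They are on a linear scale, without detection calls, and their trimmed mean was the same on every GeneChip. The study's methods describe model-based values from dChip, which were not used here. The Mouse 430 2.0 table held 45101 probe sets, of which 64 control sets were left out. Gene symbols came from the platform annotation (34945 probe sets with 1 symbol, 932 with several, 9160 with none) and 34741 were matched to RefSeq by gene ID.

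Signals under the 25th percentile of the table (144.7) were raised to it and log2 was taken. Probe sets above the median of all values (583.1) on both GeneChips of at least 1 state were tested with limma 3.58.1 in R 4.3.3, in a fit of all 8 GeneChips with an intensity trend (4 residual degrees of freedom), and p-values were adjusted by the Benjamini-Hochberg method over the 24865 probe sets tested, 19558 of which passed through Bt or GF. Differences between Bt and Bl or Bt/Bl were contrasts of the same fit, and the GlycoGeneChip table was fitted separately with its own floor (267.4) and median (854.1). A fold change of a gene at the floor is a lower bound. Each list was described by the brightest probe set of each gene, over the genes bright on average, with counts and medians and no test of the list. Text names every called gene, up to 4 members of a list that were 2-fold apart on every GeneChip, the extremes of each brightness class and a few fixed genes. Other members named beside them were chosen after their values were seen. The members and the 62 lists (43 of function) were chosen with earlier results of these data known. The fit was run on simulated data with added changes, to check the sign of large changes and the median of unchanged probe sets. That run set no limit on missed or false calls. The number of GeneChips limits the precision. Alternatives were other floors, scalings, filters and fits, a fold rule after the study's, and each GeneChip left out. Isg15 shares its probe set with another gene and was not used here.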

Additional observations from a re-analysis of the deposited data

Results flagged for a closer look

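Some genes of the Bt response differed between colonization states by a direct contrast of the pools in the limma fit. On the log2 scale Bt exceeded Bl by 6.47 and 5.80 for the probe sets of Reg3b (adjusted p = 3.52e-10 and 2.11e-09), by 6.42 for Reg3g (adjusted p = 1.69e-06), by 2.80 for Socs3 (adjusted p = 0.0264), by 2.19 and 2.71 for the probe sets of Vnn1 (adjusted p = 0.00101 and 0.000192), and by 2.76 for Ccl6 (adjusted p = 0.00444). Reg3b and Reg3g are lectins against bacteria, Socs3 inhibits cytokine signalling, Vnn1 is pantetheinase and Ccl6 a chemokine. On each of these probe sets both Bt GeneChips lay above both Bl GeneChips. A dimmer probe set of Ccl6 overlapped between Bt and Bl (limma adjusted p = 0.513).

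Against the co-colonized pool, the called probe set of Ccl6 was higher in Bt by 2.48 (adjusted p = 0.0128), and Igha, the IgA constant region, differed by -1.71 and -1.53 (Bt minus Bt/Bl, adjusted p = 0.00834 for both) on 2 of its probe sets. Igha is a product of plasma cells rather than of epithelium, and its signal in Bt was below that in every other state. Groups of 2 GeneChips are too small for a search for outlying samples.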

How the results depend on the processing

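The counts of calls depended on the fit, the scaling and single GeneChips, and the cause was not tested. Against 22 higher and 20 lower, median and 75th percentile scaling each gave 6 higher, and dropping the signal filter gave 4 and 9. A floor at the table median gave 13 lower, the Bt and GF GeneChips alone 0 higher and 7 lower, and a fit with no intensity trend 0 of either. A fold rule after the study's (lower 90% bound of the fold above 2 and a difference above 10), without its other criteria, gave 403 and 203. With 1 GeneChip left out the counts ran from 2 to 331 higher and from 3 to 45 lower. The calls in the brightest class, 34, became 17 with either scaling, 13 with no filter, 7 with 4 GeneChips and 0 with no trend (4 to 40 with 1 left out). At least 2-fold on every GeneChip, 1258 higher and 859 lower became 264 and 123 with the floor at the median, 1909 and 1419 with no filter and 301 and 226 with a filter on the mean (1341 to 5542 and 943 to 3365 with 1 left out). The median log2 fold change, 0.02, became -0.20 and -0.17 with median and 75th percentile scaling (-0.18 to 0.28 with 1 left out). Bt minus Bl, 11 calls, gave 7 with either scaling, 4 with no filter and 3 with no trend (4 to 633). Bt minus Bt/Bl, 12 calls, gave 7 with the floor at the median and 0 with either scaling, no filter or no trend (0 to 352). The 6 GlycoGeneChip calls became 2 with the floor at the median or at 16, with the filter on the mean and with 4 GeneChips, 1 with no filter and 0 with no trend (1 to 9). Of 43 functional lists 29 had a median above that of all bright genes, 25 to 31 with 1 left out. No paired analysis was possible because the labels share no replicate numbers between states. Low signal limits the dim classes, where 30.3% of Bt and 33.8% of GF values lay at the floor in the dimmest.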
